A study of Mus musculus with 6 samples.

Results

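The genes described here are 38 genes that make the machinery of DNA replication. They were taken by symbol from all 12 expression tables, by a list of names and not by any measured value, and each of the 38 was found on a line of its own among 23538 genes. The study profiled bone marrow cells of Mof -/+ mice (called het) and of wild-type mice (WT) from sorts of 15 cells. The assay was CEL-Seq2, which counts messenger RNA by tags read near the 3' end. Mof (gene symbol Kat8) is a lysine acetyltransferase of histone H4. Each genotype gave 3 libraries of each of 6 populations, 36 libraries in all. Haematopoietic stem cells (HSC) were CD150+ LSK cells without CD34, Flt3 or CD48, where LSK stands for lineage-negative cells that carry Sca-1 and cKit. The multipotent progenitors were LSK cells with CD34 and CD48, of which MPP2 carried CD150, MPP3 carried neither CD150 nor Flt3, and MPP4 carried Flt3. Common myeloid progenitors are written CMP and megakaryocyte-erythroid progenitors MEP. Both were Lin-, Sca-1-, IL7r- cells with cKit, and CMP carried CD34 and low CD16/32 while MEP carried neither. Every library came from flash-frozen sorted cells. Neither the age, strain and number of the mice nor the type of Mof allele is given in the labels.

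Before a cell divides, it marks origins of replication with the origin recognition complex, Cdc6 and Cdt1, which load rings of Mcm2 to Mcm7 on DNA. In S phase Cdc45 and the GINS complex join the ring and turn it into the moving CMG helicase, polymerases and primase copy the strands, the clamp Pcna holds the polymerases in place, and other members supply nucleotides and restore methylation and nucleosomes behind the fork. Transcripts of many of these genes rise as cells pass from G1 into S phase, so they serve as a readout of cycling cells, and adult HSC are known to be mostly quiescent. In sorted cells, fewer cycling cells and less of each RNA per cycling cell cannot be told apart.

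Levels are in CPM: each library's counts were brought to the same total, leaving out spike-in transcripts. CEL-Seq2 tags a captured transcript near its 3' end whatever its length, so CPM of different genes can be set side by side without a correction for length. Whether repeated copies of a tag were counted once is not stated in the sources used here. The exact Poisson intervals take each count as 1 transcript. Differences are given on the log2(value + 1) scale with limma's standard error (SE) and Benjamini-Hochberg adjusted p, and "called" means an adjusted p under 0.05 over all genes tested.

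The libraries held 1577 to 123765 counts, with a median of 41227, and 6 of them held under 15000 (all 3 WT MPP2, WT MPP3 libraries 1 and 2, and het HSC library 2). Between 4 and 38 of the 38 genes were detected per library, with a median of 34. Kat8 itself had 11 counts over the 18 het libraries and 12 over the 18 WT libraries, or 9.86 CPM (exact Poisson 95% interval 4.92 to 17.6) and 18.3 CPM (9.45 to 31.9), so the genotype label could not be checked from its transcript at this depth. HSC, MPP4, CMP and MEP were checked against their defining genes. No list of defining genes was used for MPP2 and MPP3. The summed level of 11 HSC markers was 1268 to 2096 CPM in het HSC and 98.1 to 2544 CPM in WT HSC, and it was 1123 to 1664 CPM in het MPP3 as well. That of 7 MPP4 markers was 1561 to 6029 CPM in het MPP4 and 1386 to 6058 CPM in WT MPP4, and at most 1636 CPM elsewhere. The summed level of 8 MEP markers was 2686 to 4808 CPM in the MEP libraries and 792 to 1937 CPM in the CMP libraries. In het MPP2 it was 1230 to 2757 CPM. Het MPP2 library 2 (2757 CPM) and het MPP4 library 3 (2829 CPM) lay within the range of the MEP libraries. That of 6 CMP markers was 106 to 2520 CPM in MEP and 2905 to 6682 CPM in CMP. Some libraries stood apart. In 7 libraries, of which 6 were WT, summed genes of mature neutrophils exceeded 10000 CPM. These were WT MPP2 library 1, WT MPP3 libraries 1 and 3, WT MPP4 library 3, WT MEP libraries 2 and 3, and het MEP library 3. The highest was WT MPP4 library 3 with 33370 CPM, and it also held macrophage and dendritic cell genes at 3437 CPM. In WT HSC library 3 the quiescence and HSC genes summed to 589 CPM, against 4298 and 3362 CPM in the other WT HSC libraries, and 11 B cell genes reached 6673 CPM. High sums of these B cell genes were not limited to that library. They were 4840, 6808 and 8057 CPM in the WT MPP2 libraries, 5876 CPM in WT MPP4 library 3 and 5601 CPM in WT MEP library 2. In het MPP4 library 3 erythroid genes reached 8658 CPM. The labels do not tie the 3 libraries of a group to separate animals, and p-values therefore cover only the scatter among these libraries, part of which may be technical. Each genotype was sequenced in pools of its own (HSC, the 3 MPP populations, CMP with MEP), so genotype and pool cannot be told apart.

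The promoters of these genes are shown first, because many members are textbook targets of E2F transcription factors and of the CCAAT-binding factor NF-Y. Of the 38 genes, 32 matched the RefSeq promoter table (GRCm38.p6). The letters TTTCCCGC, TTTGGCGC, TTTCGCGC or TTTGCCGC, on either strand, stood in the 250 bases before a start of 8 of the 32 (25%), against 2.16% of 27025 genes. The letters CCAAT, on either strand, stood there in 21 of 32 (65.6%), against 37.5% of all genes. The 8 genes with the E2F letters were Cdc6, Dnmt1, Mcm5, Mcm6, Mcm7, Pola1, Rfc3 and Uhrf1, and all but Cdc6 also held CCAAT. The 4 sequences printed are those of Mcm7 and Uhrf1, which hold both kinds of letters, and of Rrm2 and Pcna, which hold CCAAT alone and return in the results. Each is the stretch upstream of the annotated start, written 5' to 3' on the strand of the gene, with the matched letters or their reverse complement in capitals. Mcm7 and Uhrf1 have 2 annotated starts each, and the one whose window holds both kinds of letters is shown. No matched letters overlap in these windows.
Mcm7, chr5:138171884-138172133, minus strand: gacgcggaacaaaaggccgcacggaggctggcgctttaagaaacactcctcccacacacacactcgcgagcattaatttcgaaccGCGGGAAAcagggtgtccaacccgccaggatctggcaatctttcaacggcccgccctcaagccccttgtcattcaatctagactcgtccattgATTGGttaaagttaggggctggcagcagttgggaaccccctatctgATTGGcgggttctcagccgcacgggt
Uhrf1, chr17:56304063-56304312, plus strand: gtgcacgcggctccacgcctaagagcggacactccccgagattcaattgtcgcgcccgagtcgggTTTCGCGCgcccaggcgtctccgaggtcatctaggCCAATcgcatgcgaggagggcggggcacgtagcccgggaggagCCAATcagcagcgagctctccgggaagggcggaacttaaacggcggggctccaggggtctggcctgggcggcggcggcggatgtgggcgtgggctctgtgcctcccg
Rrm2, chr12:24708004-24708253, plus strand: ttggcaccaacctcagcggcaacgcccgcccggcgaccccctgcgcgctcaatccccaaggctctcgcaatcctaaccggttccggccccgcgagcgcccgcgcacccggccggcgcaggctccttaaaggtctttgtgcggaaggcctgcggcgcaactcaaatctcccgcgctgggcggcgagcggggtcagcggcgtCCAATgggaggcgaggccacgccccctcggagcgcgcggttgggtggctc
Pcna, chr2:132253181-132253430, minus strand: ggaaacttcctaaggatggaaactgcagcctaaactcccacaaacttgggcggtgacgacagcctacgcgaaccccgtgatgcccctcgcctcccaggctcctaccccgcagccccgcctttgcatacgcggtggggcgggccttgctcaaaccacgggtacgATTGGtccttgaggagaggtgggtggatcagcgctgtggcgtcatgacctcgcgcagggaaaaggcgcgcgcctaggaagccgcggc
A match is a description of the letters and not a measured binding site.

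The members spanned a wide range of levels. Pcna, the sliding clamp, was the highest with a mean of 549.8 CPM over the 36 libraries, followed by the helicase ring subunits Mcm7 (302 CPM) and Mcm6 (296 CPM), Lig1, the ligase that seals the lagging strand (252 CPM), and Dnmt1, the methyltransferase that copies DNA methylation (231 CPM). The lowest were Rfc4 of the clamp loader (19.6 CPM), Gins1 of the CMG helicase (20.8 CPM) and Mcm10, which acts on that helicase (23.3 CPM). These 3 had a count in 18, 20 and 22 of the 36 libraries. Subunits of 1 complex were not at 1 level. The 6 subunits of the Mcm ring, which stand in equal numbers in the protein complex, ran from 120.5 CPM for Mcm4 to 302 CPM for Mcm7. Of the single-strand binding protein, the 2 larger subunits Rpa1 and Rpa2 averaged 84.5 and 93.8 CPM and the smallest, Rpa3, 28 CPM. These means weight shallow and deep libraries alike. With the counts of all libraries pooled, Pcna, Mcm7 and Mcm6 were again the highest, followed by Dut (267 CPM), Lig1 (266 CPM) and Dnmt1 (259 CPM). Of ribonucleotide reductase, which makes deoxynucleotides, the large subunit Rrm1 averaged 129 CPM and the small subunit Rrm2 195 CPM, but 146 and 157 CPM when pooled, and in CMP and MEP the order turned, with 159 CPM for Rrm1 and 108 CPM for Rrm2. Pcna and Tyms have annotated pseudogenes of the same name, and 12 members overlap another coding gene, among them Mcm7 with Cops6 and Ap4m1. How the counting treated such reads is not given in the sources used here, so these levels are uncertain.

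**Figure D1:**
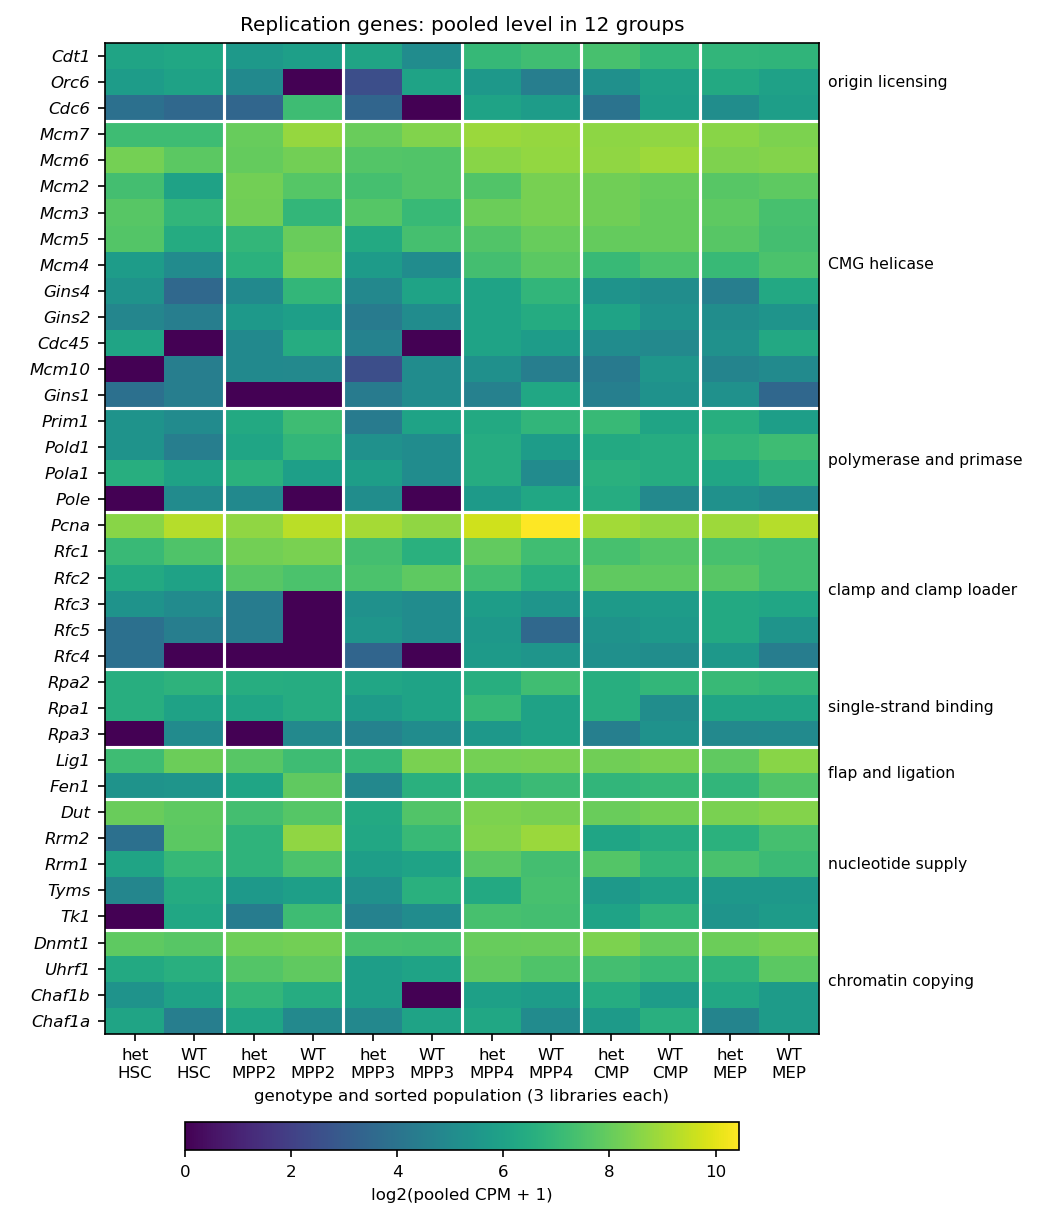
Pooled level of each of the 38 genes (rows, grouped by role, highest first within a role) in the 12 groups (columns, het left of WT, 3 libraries each), coloured as log2(pooled CPM + 1). Pcna is the brightest row, and the darkest cells are groups in which no count of the gene was seen, most often in the shallow WT MPP2 and WT MPP3 libraries and in HSC.

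The summed level of the 38 genes was lowest in HSC and MPP3, higher in CMP and MEP, and highest in MPP4, with exceptions in single libraries. The medians over the 6 libraries of a population were 3237 CPM in HSC, 6307 CPM in MPP4, 5368 CPM in CMP and 5103 CPM in MEP. In HSC it was 3586, 2536 and 2888 CPM in the het libraries and 1066, 3932 and 5627 CPM in the WT libraries. The WT libraries spread more widely than the het ones and overlapped them. In MPP2 it was 3397, 2497 and 6103 CPM in het libraries and 7453, 7294 and 2745 CPM in WT libraries. In MPP3 it was 3336, 2690 and 3437 CPM in het libraries and 2875, 2894 and 4031 CPM in WT libraries. The MPP3 values lay close together in both genotypes, and none reached the lowest CMP or MEP value of 4157 CPM. WT MPP3 libraries 1 and 2 held only 21 and 8 counts of the 38 genes. The exact Poisson intervals of the WT MPP3 libraries reached up to 4395, 5703 and 4991 CPM, past that lowest value.

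In MPP4 the sum was 7159, 5456 and 5024 CPM in het libraries and 8095, 9229 and 443 CPM in WT libraries. WT MPP4 library 2 was the highest of all 36, and WT MPP4 library 3 was the lowest of all, with 8 counts of the 38 genes (443 CPM, exact Poisson interval 191 to 874 CPM). That library is also the one with the most mature neutrophil RNA. Its part in the low value was not tested. WT MEP library 2 and het MEP library 3, with 33261 and 28120 CPM of the same neutrophil genes, held 5372 and 4776 CPM of replication genes. Over the 7 neutrophil-rich libraries the sum ran from 443 to 7453 CPM with a median of 4776 CPM, and over the other 29 from 1066 to 9229 CPM with a median of 4833 CPM.

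In CMP the sum was 5906, 5386 and 5317 CPM in het libraries and 5349.6, 5928 and 4763 CPM in WT libraries. In MEP it was 5484, 4833 and 4776 CPM in het libraries and 4157, 5372 and 6310.1 CPM in WT libraries. These 12 libraries ran from 4157 to 6310.1 CPM. In 7 of the 12 groups the exact Poisson intervals of the lowest and the highest library did not overlap. These were het MPP2, het MPP4, and WT HSC, MPP2, MPP4, CMP and MEP. The gap was widest in WT MPP4 (191 to 874 CPM and 8289.7 to 10245 CPM) and WT HSC (724 to 1513 CPM and 4817 to 6533 CPM).

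**Figure D2:**
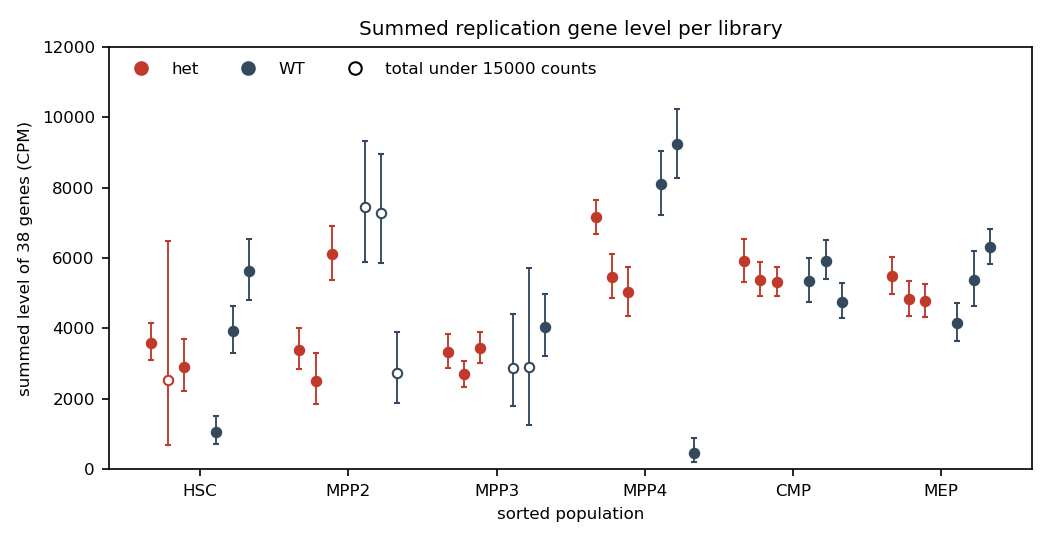
Summed level of the 38 genes (CPM) in each of the 36 libraries by population, het (red) left of WT (dark). Bars are exact Poisson 95% intervals, which cover counting error only, and open points have totals under 15000 counts. MPP3 libraries lie between 2690 and 4031 CPM, CMP and MEP libraries between 4157 and 6310.1 CPM, and WT MPP4 library 3 stands alone at 443 CPM.

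Progenitors were compared with HSC, averaged over both genotypes, to ask whether the replication genes are lower in the stem cells. Of the 35 members that passed the filter on low values (a mean of at least 1 rescaled count), none was called by limma, 10 had an unadjusted p under 0.05, and edgeR and DESeq2 called none either. Over all 6501 genes 0.508% were called and 12.2% had an unadjusted p under 0.05. Of the 35 members, 32 were on the higher side in progenitors, with a median difference of 0.65, where 68.6% of all genes were and the median of all genes was 0.22. HSC were sequenced in pools of their own, so this is a comparison of pools as well. Without het HSC library 2, of 1577 counts, 29 of 35 members were on the higher side with a median of 0.50, where the median of all genes was -0.05. Without the 6 shallow libraries 32 of 37 members were on the higher side with a median of 0.55, where the median of all genes was 0.02.

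Among the helicase subunits, all 9 tested members were on the higher side, from 0.03 to 1.33, with a median of 0.80. Mcm4, an Mcm ring subunit, had 57.8, 0 and 46.6 CPM in het HSC and 0, 28.5 and 65.4 CPM in WT HSC, and a median of 125 CPM over the 30 progenitor libraries (0 to 581 CPM). All 6 HSC libraries lay below that median. The difference was 1.33 (SE 0.41, adjusted p = 0.114). Mcm7, which showed both promoter motifs, had 135, 0 and 186 CPM in het HSC and 34.4, 171 and 229 CPM in WT HSC, and a median of 357 CPM in progenitors (0 to 729 CPM). Its difference was 1.29 (SE 0.50, adjusted p = 0.241).

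Outside the helicase, the maintenance methylation factor Uhrf1, which recruits Dnmt1 to newly copied DNA, had no count in 4 of the 6 HSC libraries. It had 116, 0 and 0 CPM in het HSC, 0, 0 and 294 CPM in WT HSC, and a median of 144 CPM in progenitors (0 to 484 CPM). The value of 294 CPM is from WT HSC library 3, the one poor in HSC genes. The difference was 1.57 (SE 0.51, adjusted p = 0.130), and it was called without that library, at 2.19. Rfc2, a clamp loader subunit, had 96.4, 0 and 46.6 CPM in het HSC, 0, 114 and 65.4 CPM in WT HSC, and a median of 204 CPM in progenitors (0 to 314 CPM), a difference of 1.44 (SE 0.46, adjusted p = 0.129). Pcna overlapped widely, with 386, 0 and 419 CPM in het HSC and 138, 598 and 1079.5 CPM in WT HSC against a median of 523 CPM in progenitors (0 to 1914 CPM), and its difference was 0.72 (SE 0.50, adjusted p = 0.579). The 3 members on the lower side in progenitors were Rpa1 (-0.81, SE 0.45), the origin subunit Orc6 (-0.29, SE 0.37) and the thymidylate synthase gene Tyms (-0.11, SE 0.48). Rpa1 and Tyms each owe 634 CPM in het HSC library 2 to 1 count. Single libraries moved calls in this comparison: without het HSC library 1 limma called Mcm4, Rfc2 and Uhrf1 (1.49, 1.70 and 1.99), and without WT MPP3 library 2 it called Rfc2 (1.56). The share of all genes called with a library left out is not given here.

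The 2 genotypes gave different values, although the difference between them was called for no member (0.0154% of all genes). Within het libraries, 31 of 35 members were on the higher side in progenitors, with a median of 1.07 (all genes 0.57, of which 82.2% were on the higher side). Within WT libraries 23 of 35 were, with a median of 0.36 (all genes -0.13, 41.7% on the higher side). The difference between the genotypes had a median of 0.55 over the members and 0.68 over all genes. The median of the members turned to -0.28 with DESeq2 (all genes -1.28), and it was 0.16 without het HSC library 2 and 1.19 without het HSC library 1. By limma 4 members had an unadjusted p under 0.05, against 14.2% of all genes, and edgeR and DESeq2 called none. Clamp and clamp loader genes had medians of 1.37 in het and 0.07 in WT libraries, nucleotide supply genes 1.25 and 0.15, and helicase genes 0.89 and 0.91. Whether roles differ in this was not tested. Of the 4 members, Gins4 (-2.67, SE 0.93, adjusted p = 0.211) and Mcm2 (-1.75, SE 0.87, adjusted p = 0.351) owe 634 CPM in het HSC library 2 to 1 count each, and Pole (1.91, SE 0.67, adjusted p = 0.213) and Chaf1b (1.60, SE 0.79, adjusted p = 0.345) had positive differences. Without het HSC library 1 Gins4 was called, at -3.44, and the share of all genes called in that fit is not given here. Rrm2 had 19.3, 0 and 0 CPM in het HSC and 0, 285 and 359.8 CPM in WT HSC, while its median was 107 CPM in het progenitors and 195 CPM in WT progenitors. The same WT HSC libraries 2 and 3 were rich in mitosis genes, with 6041 and 6444 CPM, against 1238 CPM in WT HSC library 1 and 634 to 1562 CPM in het HSC, and the part of this in the result was not tested.

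**Figure D3:**
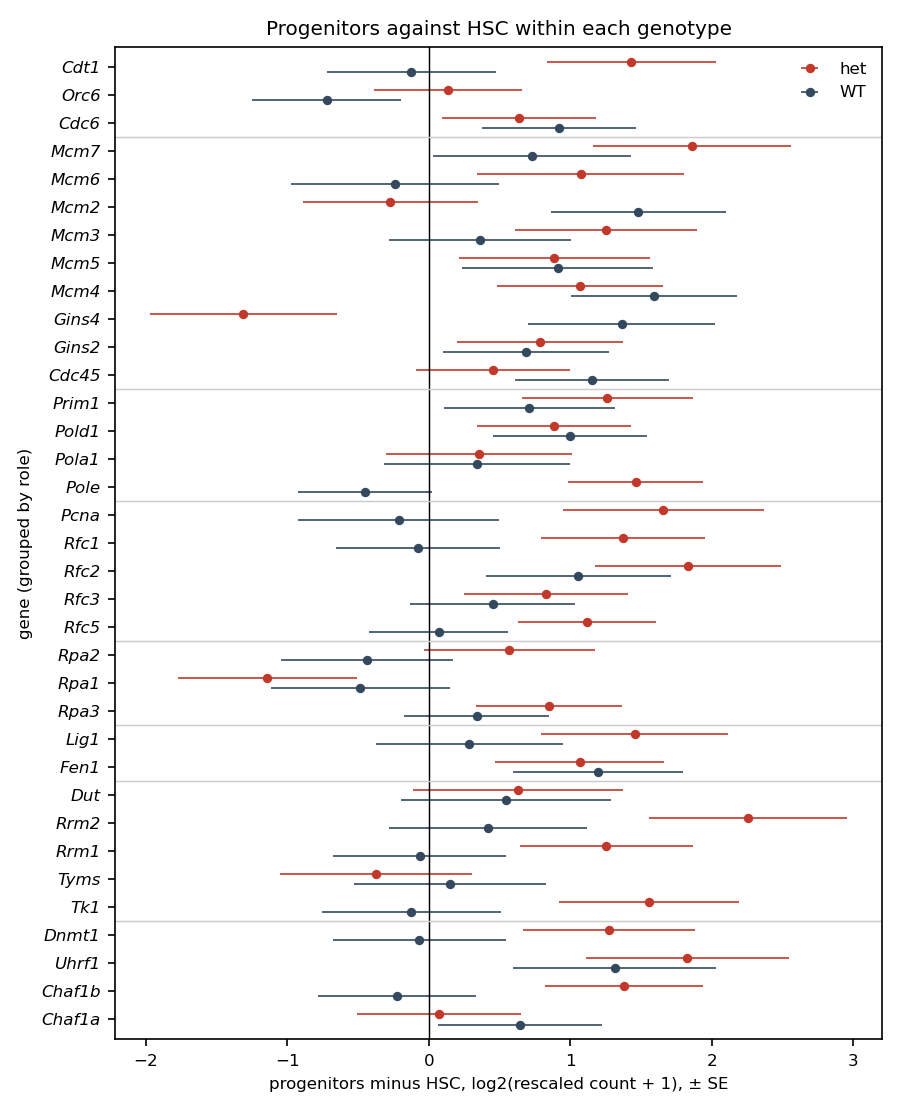
Difference between progenitors and HSC for the 35 tested genes on the log2(rescaled count + 1) scale, within het (red, upper point) and WT libraries (dark, lower point), with bars of 1 SE and grey lines between roles. Most het points lie right of 0, WT points scatter on both sides of it, and the SE spans overlap in most rows.

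Other genes of the pathway were set beside the members. Of 57 further replication genes 43 were tested, of which limma called 0 and 37 were on the higher side in progenitors, with a median of 0.40. The 3 highest of them were Rbbp4, a histone chaperone subunit shared with the chromatin assembly factor (0.98, SE 0.39, adjusted p = 0.257), the topoisomerase Top1 (0.54, SE 0.41, adjusted p = 0.621) and the nucleoside diphosphate kinase Nme2 (1.15, SE 0.41, adjusted p = 0.176). Of 23 tested mitosis genes 17 were on the higher side with a median of 0.32, of 15 G1/S regulators 9 with a median of 0.34, and of 9 quiescence and HSC genes 3 with a median of -0.79. Limma called none of these.

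The 3 MPP populations were compared within the het libraries, which shared 1 pool and held 19221 to 118600 counts. In MPP3 most replication genes were below their level in MPP4. No member was called by limma, 5 of 35 had an unadjusted p under 0.05, and 32 of 35 were on the lower side in MPP3, with a median of -0.60. Of all 6501 genes 0.0923% were called, 4.58% had an unadjusted p under 0.05 and 45.8% were on the lower side, with a median of 0.07. Genes of B cells were lower as well: all 9 tested of 11 B cell genes were on the lower side in MPP3, with a median of -2.70 and no call. The 11, of which Vpreb3 had the highest mean over all libraries (465 CPM), summed to 1276, 87.6 and 545 CPM in het MPP3 and 2690, 5438 and 3561 CPM in het MPP4. None of 10 tested lymphoid priming genes was on the higher side in MPP3, with a median of -1.96 and 1 call. The part of both lists in the result was not tested. On the recovered counts edgeR called Rrm2 (-2.45) and DESeq2 called Rrm1 (-2.01), each 1 member. The share of all genes called by edgeR and DESeq2 is not given here.

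In 10 of 35 members every MPP3 library was below every MPP4 library, where 7.63% of all genes were, and in no member was every MPP3 library above, where 10.4% of all genes were. The 10 were Cdc45, Cdc6, Fen1, Lig1, Orc6, Prim1, Rrm1, Rrm2, Tk1 and Uhrf1. They span licensing, helicase, priming, ligation, nucleotide supply and methylation copying. In het MPP4 library 3, rich in erythroid genes, several members were low. Of the 10, however, Cdc45, Cdc6, Orc6, Rrm1, Rrm2 and Tk1 had their highest het MPP4 value in that library. Without it every MPP3 library was below every MPP4 library in 21 of 35 members, against 15.0% of all genes. Among them were the clamp Pcna and the single-strand binding subunit Rpa2. In the other direction 0 separated, against 14.2%. The counts without library 3 were added after the values were seen.

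Nucleotide supply showed the widest gap, with all 5 members on the lower side in MPP3 and a median of -1.59. Rrm2 had 187, 50.0 and 14.0 CPM in het MPP3 and 194, 377 and 756 CPM in het MPP4. The highest MPP3 library came close to the lowest MPP4 one, and the difference was -2.28 (SE 0.90, adjusted p = 0.817). Tk1, the thymidine salvage kinase, had 17.0, 25.0 and 27.9 CPM in het MPP3 and 118, 144 and 341 CPM in het MPP4. Its 3 MPP3 values lay close together and well under MPP4, with a difference of -2.12 (SE 0.82, adjusted p = 0.780). Rrm1 had 85.1, 25.0 and 69.9 CPM in het MPP3 and 228, 179 and 244 CPM in het MPP4, a difference of -1.59 (SE 0.79, adjusted p = 1). Dut, which keeps uracil out of DNA, had 68.1, 75.1 and 97.8 CPM in het MPP3 and 422, 377 and 24.4 CPM in het MPP4. Dut did not separate because of the low value in library 3. The highest MPP4 values of Rrm1, Rrm2 and Tk1 are from the same library. It held 8658 CPM of erythroid genes and 9097 CPM of mitosis genes, and the part of this in the gap was not tested.

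The licensing factor Cdc6 had 17.0, 0 and 14.0 CPM in het MPP3 and 59.0, 71.8 and 73.2 CPM in het MPP4, with a difference of -1.45 (SE 0.70). Orc6 had 0, 0 and 14.0 CPM in het MPP3 and 16.9, 71.8 and 97.6 CPM in het MPP4, with a difference of -1.47 (SE 0.68). The primase subunit Prim1 had 34, 12.5 and 14.0 CPM in het MPP3 and 92.7, 71.8 and 48.8 CPM in het MPP4. The values of all 3 genes rest on few counts per library, and no MPP3 library reached an MPP4 library. The flap nuclease Fen1, which trims lagging strand fragments, had 0, 25.0 and 55.9 CPM in het MPP3 and 135, 89.7 and 73.2 CPM in het MPP4. Lig1 had 204, 100.1 and 83.8 CPM in het MPP3 and 346, 215 and 317 CPM in het MPP4. Uhrf1 had 51.1, 25.0 and 97.8 CPM in het MPP3 and 278, 215 and 146 CPM in het MPP4. The lowest MPP4 values of Fen1 and Uhrf1 are from library 3, that of Lig1 from library 2.

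In the clamp and its loader the differences were smaller. Pcna had 681, 413 and 531 CPM in het MPP3 and 927, 789.6 and 609.7 CPM in het MPP4, so that the highest MPP3 library was above the lowest MPP4 one, and the difference was -0.51 (SE 0.92). Rfc2 had 136, 138 and 251 CPM in het MPP3 and 169, 144 and 122 CPM in het MPP4. Over the 5 tested members of this role the median was -0.13, with 2 on the higher side in MPP3, against -0.47 over the 9 tested helicase members.

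In MPP2, too, most members were on the lower side against MPP4. There 30 of 35 were, with a median of -0.57 (55.3% of all genes, median -0.08). The median was -0.25 without het MPP2 library 2 and -0.85 without het MPP2 library 3. All 9 tested B cell genes were on the lower side here too, with a median of -1.76, and the 11 summed to 1509.9, 989 and 820.2 CPM in het MPP2. None of 10 tested lymphoid priming genes was on the higher side in MPP2, with a median of -1.84 and no call. No member was called by limma (0.0154% of all genes), edgeR or DESeq2, and 1 had an unadjusted p under 0.05, against 4.37% of all genes. Every MPP2 library was below every MPP4 library for Cdc45, Cdc6, Rrm1 and Tk1, 4 of 35 members, where 6.95% of all genes were, and above for none, where 5.23% were. Without het MPP4 library 3 it was below for 10 of 35 members (14.9% of all genes) and above for none (8.06%). Tk1 had 0, 0 and 48.2 CPM in het MPP2 and 118, 144 and 341 CPM in het MPP4, with a difference of -2.56 (SE 0.82, adjusted p = 0.697). Rrm1 had 101, 0 and 169 CPM in het MPP2 and 228, 179 and 244 CPM in het MPP4, with a difference of -1.52 (SE 0.79). The het MPP4 libraries enter both comparisons.

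**Figure D4:**
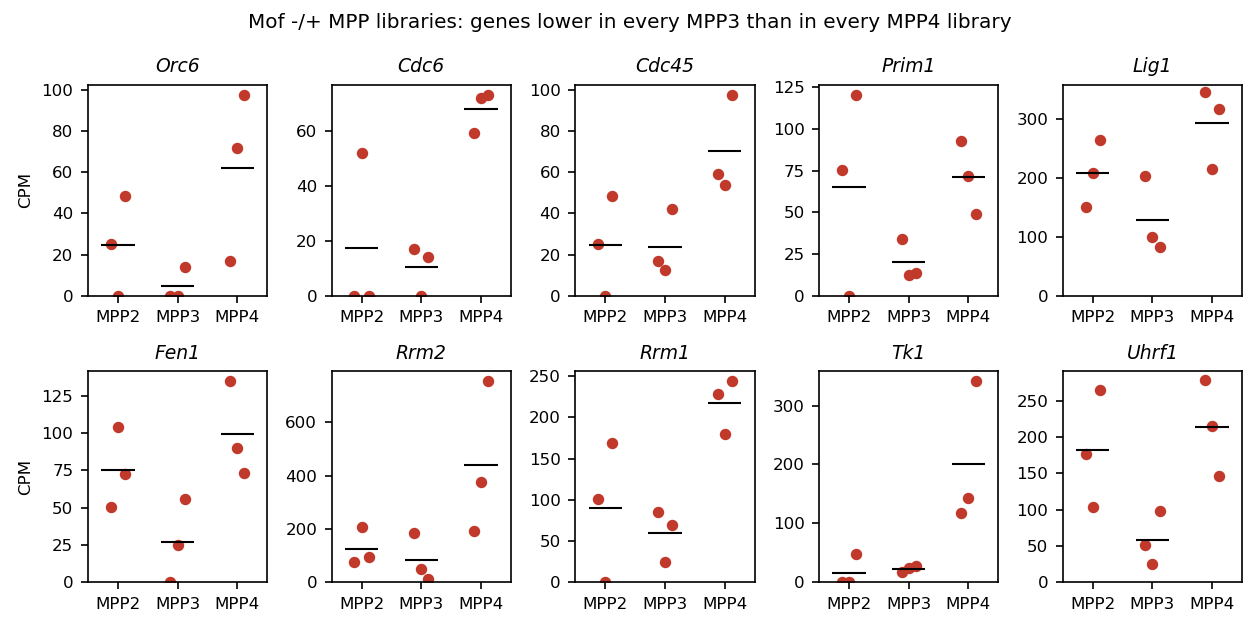
Level (CPM) in each het MPP2, MPP3 and MPP4 library of the 10 genes whose MPP3 libraries all lie below all MPP4 libraries; points are libraries, lines are group means, and each panel has its own axis from 0. Tk1 lies at 17.0 to 27.9 CPM in MPP3 and 118 to 341 CPM in MPP4, and MPP2 points overlap MPP4 for most genes.

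Mitosis genes were set beside them. All 23 tested were on the lower side in het MPP3 with a median of -1.75, and all 23 in het MPP2 with a median of -1.37. Mki67, the proliferation antigen, differed by -2.90 (SE 0.84, adjusted p = 0.212) and the topoisomerase Top2a by -2.22 (SE 0.93, adjusted p = 0.923) between MPP3 and MPP4. The 43 further replication genes had a median of -0.24 in MPP3 and -0.41 in MPP2, and the 9 quiescence and HSC genes a median of 1.11 in MPP3 and 1.20 in MPP2, led by Ctla2a with 3.37 (SE 0.89, adjusted p = 0.109) in MPP3. Limma called no gene of these lists.

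Across the 36 libraries the ratio of summed mitosis to summed replication genes ran from 0.138 to 1.81. In CMP it was 0.213 to 0.261 in het and 0.160 to 0.305 in WT libraries, and in MEP 0.348 to 0.490 in het and 0.282 to 0.432 in WT libraries. In HSC it was 0.250 to 0.435 in het and 1.15 to 1.54 in WT libraries. In MPP4 it was 0.526 to 1.81 in het and 0.558 to 1.25 in WT libraries. The het and WT HSC libraries did not overlap, and each of the 3 WT HSC libraries held more mitosis than replication RNA, as no CMP or MEP library did. In MPP2 the ratio was 0.281 to 1.04 in het and 0.779 to 1.45 in WT libraries, and in MPP3 0.138 to 0.658 in het and 0.452 to 1.43 in WT libraries. The ratio was above 1 in 9 of the 36 libraries. That of het HSC library 2 rests on 4 counts of replication genes, and that of WT HSC library 1 (1.16) on 31. WT HSC library 3 (1.15) is the one with 589 CPM of quiescence and HSC genes and 6673 CPM of B cell genes. The genotype difference in this ratio was not tested.

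**Figure D5:**
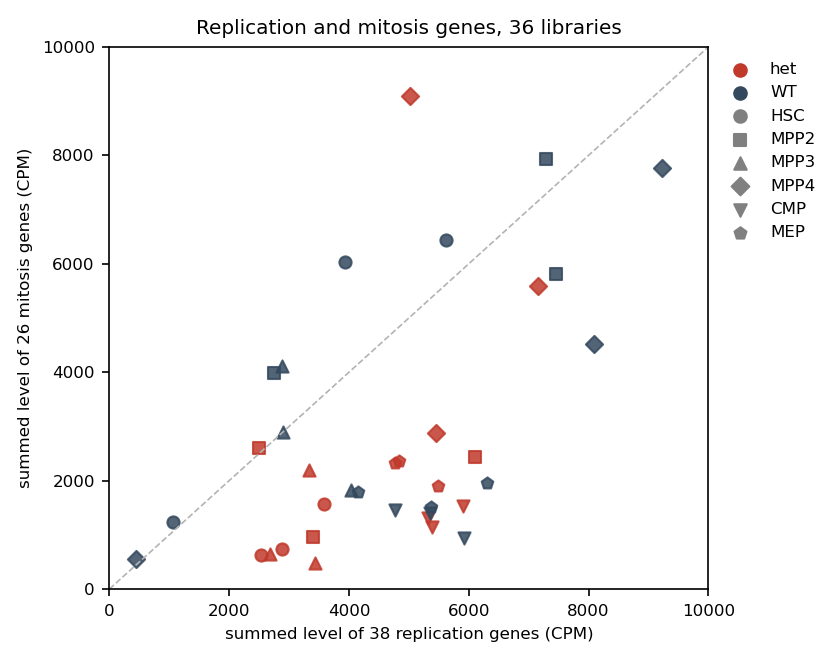
Summed level of the 26 mitosis genes against that of the 38 replication genes (both CPM, linear axes) in 36 libraries, coloured by genotype and shaped by population, with a dashed line of equal sums. CMP and MEP libraries form a band at 951 to 2370 CPM of mitosis genes, and the MPP4 libraries reach from WT MPP4 library 3 near the origin to 9097 CPM in het MPP4 library 3.

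MEP and CMP share a pool within each genotype, and their libraries held 34996 to 123765 counts. No member was called by limma (0.0154% of all genes), none had an unadjusted p under 0.05 (1.48% of all genes), and neither edgeR nor DESeq2 called any. Of 35 members 15 were on the higher side in MEP (46.6% of all genes), the median was -0.02 (all genes -0.03), and single differences ran from -0.61 (Chaf1a, a subunit of the chromatin assembly factor) to 0.51 (Rrm2). In no member did the 6 MEP libraries and the 6 CMP libraries separate, where 0.323% of all genes separated upward and 0.431% downward. Pcna had 557, 426 and 467 CPM in het MEP and 335, 657 and 772 CPM in WT MEP, against 584, 505 and 461 CPM in het CMP and 449, 515 and 340.2 CPM in WT CMP. The difference was 0.13 with a 95% interval of -1.16 to 1.43, which spans more than 2-fold either way. Mcm7 had 246, 519 and 376 CPM in het MEP and 352, 200.02 and 371 CPM in WT MEP, against 373, 359 and 452 CPM in het CMP and 359, 555 and 314 CPM in WT CMP, and differed by -0.25 (95% interval -1.53 to 1.04). Of the mitosis genes 20 of 23 were on the higher side in MEP, with a median of 0.38 and no call.

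Genotype, the main question of the study, was tested for all 38 members on the authors' scale. Averaged over the 6 populations limma called no member, where 0.0776% of 6444 genes were called, and 2 members had an unadjusted p under 0.05 (10.7% of all genes). In het libraries 24 of 38 members were on the higher side, with a median of 0.08 (67.3% of all genes, median 0.12). These 2 were Mcm3, an Mcm ring subunit (0.64, SE 0.27, adjusted p = 0.386), and Rfc5, a clamp loader subunit (0.54, SE 0.23, adjusted p = 0.375). Rrm2 was at -0.55 (SE 0.32) and Pcna at 0.05 (SE 0.33, 95% interval -0.61 to 0.71). The interaction of genotype with population was called for no member (0.031% of all genes), with none at an unadjusted p under 0.05, against 8.74% of all genes. By edgeR no member was called in the average, in the interaction or in any population, and DESeq2, not run for the interaction, called none in the others.

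Within single populations no member was called by limma. In HSC, where 0.0155% of all genes were called, the median was -0.28 (all genes -0.34), with 1 member at an unadjusted p under 0.05 (6.49% of all genes), Rrm2 at -1.84 (SE 0.79, adjusted p = 0.695). In MPP2, with 0.0776% of all genes called, the median was -0.01 (all genes 0.21), with 1 such member (7.77%). In MPP3, with 0.31% of all genes called, it was 0.29 (all genes 0.56), with 3 such members (16.1%), Mcm3 at 1.78 (SE 0.67), Pcna at 1.87 (SE 0.81) and Mcm7 at 1.68 (SE 0.79). These 3 rest on 2 shallow WT libraries. Pcna had 681, 413 and 531 CPM in het MPP3 and 137, 0 and 576 CPM in WT MPP3, and Mcm7 323, 188 and 307 CPM in het MPP3 and 0, 0 and 528 CPM in WT MPP3. Mature neutrophil genes summed to 1889, 1864 and 671 CPM in het MPP3 and 20537, 4703 and 13724 CPM in WT MPP3. The part of this in the result was not tested. The WT library of 20839 counts, library 3, was above all het libraries for Mcm7 and above 2 of 3 for Pcna. Without the 6 shallow libraries Pcna was at -0.06 and Mcm7 at -0.84. Without that WT library, which leaves the shallow ones alone, limma called all 3 genes (Mcm3 at 2.61, Pcna at 2.84 and Mcm7 at 2.94). The share of all genes called in that fit is not given here.

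In MPP4, with no member and 0.031% of all genes called, the median was 0.53 (all genes 0.17), 31 of 38 members were on the higher side in het libraries (60.6% of all genes), and 2 had an unadjusted p under 0.05 (7.45%). This direction rests on WT MPP4 library 3. Without it the median was -0.33. In CMP the median was -0.06 (all genes 0.04) with no member called (0.031% of all genes) and 2 at an unadjusted p under 0.05 (3.72%), and in MEP it was 0.01 (all genes 0.09) with none called (0.031%) and 2 such members (5.28%). Pole, the catalytic subunit of polymerase epsilon, was higher in every het than in every WT CMP library, with 64.9, 89.8 and 97.0 CPM in het and 35.9, 39.6 and 13.1 CPM in WT libraries. It was 1 of 4 of 35 members to separate upward in CMP, with Chaf1b, Prim1 and Rpa1 (7.64% of all genes), and Dut and Rfc1 separated downward (4.91%). In MEP 4 of 35 members separated downward in het libraries (5.21% of all genes) and Mcm3 upward (6.78%). Of these, Lig1 had 272, 239.7 and 205 CPM in het MEP and 352, 457 and 381 CPM in WT MEP, and Uhrf1 had 143, 79.9 and 114 CPM in het MEP and 176, 171 and 264 CPM in WT MEP. The other two were Chaf1a and the helicase subunit Gins4, which had 0, 26.6 and 34.2 CPM in het MEP and 35.2, 85.7 and 97.7 CPM in WT MEP (-1.40). In HSC Mcm2 and Rpa1 separated upward (1.03%) and Pole downward (6.26%). For Mcm2 and Rpa1 the value of het HSC library 2 is 1 count each, and Pole had 1 count in each WT HSC library and none in het HSC. In MPP2 Mcm3 separated upward (9.49%) and none downward (5.01%). In MPP3 Cdc45, Chaf1b and Pole, which had no count in any WT MPP3 library, separated upward (21.3%) and Lig1 downward (1.82%). In MPP4 none separated upward (6%) or downward (3.85%). Mcm3, Mcm4, Mcm10, Tk1, Pole, Cdc45, Gins1, Gins4, Rfc4, Rfc5, Tyms and Chaf1a were named because of values already seen.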

How the data were processed

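The members, gene lists and comparisons were chosen with earlier results of these data known. The values the authors deposited are a normalised signal: within each library 100% of them are whole multiples of the smallest (within 0.01 counts), so whole counts could be recovered by division. The submitters' processing notes name BWA 0.6.2-r126 and the mm10 build. The sources used here do not state the counter, its use of strand or molecular identifiers, or the annotation. Genotype comes from the labels, and population from the names of the deposited tables. In the WT MEP table spike-in names are missing, so gene names after line 6842 were taken by position from the WT HSC table (rank correlation with WT CMP, across genes, 0.352 as deposited and 0.902 by position).

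Log2(value + 1) was tested with limma 3.58.1 (R 4.3.3, intensity trend) over 36 libraries with 1 coefficient per group. Genotype was tested on the deposited signal (6444 genes with a mean of at least 1), since genotypes of 1 population share a scale. Populations were tested on recovered counts rescaled to 41227 per library (6501 genes, which Rfc4, Gins1 and Mcm10 did not pass). P-values were Benjamini-Hochberg adjusted at 0.05. The difference on this scale understates changes of low genes, and an SE covers the spread between libraries. Alternatives were edgeR 4.0.16, DESeq2 1.42.0, TMM and RLE scaling, a pseudocount of 0.1, no filter, and libraries left out. The scripts were tested on simulated data. Text names the 3 highest members of each role other than Pold1, the called members, and up to 3 of the highest genes of some of the other lists. No values of Cdt1 and Pola1 are given in the text. Total counts per library ran from 1577 to 123765, so 1 count was worth 8.08 to 634 CPM.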

Additional observations from a re-analysis of the deposited data

How the results depend on the processing

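No paired analysis was possible because each library has a number of its own in the column names, and no 2 groups share one. Counts of called members, 0 in each comparison, became 1 without the neutrophil-rich libraries for the genotype average and for the interaction, 2 with TMM scaling and 4 without the neutrophil-rich libraries for het against WT in MPP3, 1 without WT HSC and MPP4 library 3 for progenitors against HSC, and 1 each with edgeR and DESeq2 for MPP3 against MPP4. With 1 library left out at a time they ran from 0 to 3 for het against WT in MPP3 (3 without WT MPP3 library 3), from 0 to 3 for progenitors against HSC, and from 0 to 1 for its difference between genotypes, and stayed at 0 in the others. The cause of these shifts was not tested. The share of all genes called in each of these fits is not given here. These counts therefore do not show whether members were called more often than other genes.

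With a pseudocount of 0.1 the median of the members was 1.44 for het against WT in MPP3, 1.40 in MPP4, 1.37 for progenitors against HSC, 1.47 for its difference between genotypes and -1.32 for MPP2 against MPP4; a smaller pseudocount widens differences that involve a 0. With DESeq2 it was -0.46 for het against WT in MPP3 and -0.28 for the difference between genotypes. For het against WT in MPP4 it was -0.35 without the neutrophil-rich libraries and -0.33 without WT HSC and MPP4 library 3. With 1 library left out the medians ran from -0.33 to 1.01 for het against WT in MPP4, from 0.16 to 1.19 for the difference between genotypes, from 0.47 to 0.93 for progenitors against HSC, from -0.82 to -0.40 for MPP3 against MPP4 and from -0.85 to -0.25 for MPP2 against MPP4. Of 33 differences of single members followed, 2 reversed: Mcm7 for het against WT in MPP3 with DESeq2 (-0.24) and without the shallow libraries (-0.84), and Pcna without the shallow libraries (-0.058). For het against WT in MPP2 no value could be had without the shallow libraries, and DESeq2 was not run for the interaction. The neutrophil-rich and single-library alternatives other than leaving out 1 library at a time, and total scaling for genotype, were chosen after seeing the data. Depth limits the low genes: in het HSC library 2 a single count is 634 CPM.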
